A study of Mus musculus with 4 samples.

Results

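The cell cycle and proliferation genes are a list of 43 genes that work in entry into the cycle, DNA replication, mitosis and cell cycle arrest. A gene was taken as measured where a probe set carried its symbol and no other, and the probe set with the highest mean over the arrays stood for the gene. By this rule 41 of the 43 genes were measured, out of 22180 genes tested on the array. The cyclin genes Ccnb1 and Ccne2 had no probe set with a single symbol and were not analysed here. Members were chosen by symbol, and the rule did not use the values beyond the choice of probe set. The list itself was chosen with earlier results of these data known.

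RNA came from thioglycollate-elicited peritoneal macrophages of wild type DBA/2J mice (DBA) and wild type 129S6/SvEv mice (129), 3 months old and on regular chow. Each mouse had received 1 ml of thioglycollate into the peritoneum, the cells were collected 4 days later, and the adherent cells were cultured overnight before RNA isolation. Per the labels, RNA of 3 mice of a strain and sex was pooled, while the study's methods state another number of mice. There were 4 arrays, with 1 female and 1 male pool of DBA and 1 female and 1 male pool of 129. The arrays were run in a search for genes behind 2 atherosclerosis loci, Ath44 on chromosome 1 and Ath45 on chromosome 2, that differ between the strains. A strain therefore had 2 pools of unlike sex, and a strain and sex together had 1, so that the spread within a strain holds any effect of sex and of the pool.

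Cells divide by passing a gate in G1, where D-type cyclins and their kinases free E2F factors to switch on the genes of DNA synthesis, and a gate before mitosis, where CDK1 with its cyclins starts chromosome segregation. The mitotic genes are held down in resting cells by a repressor complex that binds the cell cycle homology region (CHR) near their starts, often with a CCAAT box beside it. The resident macrophages of the peritoneum can renew themselves by division.

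The values are log2 signals. They ran from 1.71 to 14.2 over all probe sets, and the pools' medians over all genes lay between 7.65 in the DBA female pool and 7.70 in the 129 female pool. The upper quartiles were 9.66 in DBA female, 9.76 in DBA male, 9.66 in 129 female and 9.52 in 129 male. The correlation of 2 pools over all genes was between 0.985 and 0.993. Xist and the Y-linked genes matched the labelled sex in all 4 pools. All 17 macrophage markers were measured and none lay below the background reference of 7.17. This reference is the 95th percentile of the means of 1394 olfactory and vomeronasal receptor genes, a class taken here as a stand-in for background. The macrophage markers took more than 1 order of the pools. Ctsd (13.84 in DBA female, 13.81 in DBA male, 13.84 in 129 female and 13.85 in 129 male) and Cybb (13.71, 13.64, 13.63 and 13.60 in the same order) were near equal in the pools. Both DBA pools lay above both 129 pools in 12 of the 17 markers, against 23.0% of all genes, and below them in 4, against 21.4%. Among these Aif1 had 10.40, 9.77, 8.96 and 8.29, and Marco had 12.18, 11.73, 10.80 and 10.22, while Mertk had 10.91, 10.71, 11.09 and 11.12 in the same order of pools. None passed the test, with 6 higher and 1 lower in DBA at an unadjusted p under 0.05, beside 6.44% and 5.08% of all genes.

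The sequences of the members' start sites are shown because the gap between the DBA pools differed in size between the members, and because the CHR and the E2F site are the known elements of mitotic and of replication genes. Promoter windows of 300 bases, 250 before and 50 after the start, were read from RefSeq (GRCm38.p6), where 33 of the 41 measured members had an entry. Ube2c, Cdc20, Prc1 and Plk1 are mitotic genes with the largest gaps between the DBA female and DBA male pools, Mcm6 is the replication gene with the most matches to the E2F site, and Tyms is the member with the lowest value in DBA relative to 129. The windows are Ube2c at chr2:164769679-164769978 (plus strand), Cdc20 at chr4:118437294-118437593 (minus strand), Prc1 at chr7:80294201-80294500 (plus strand), Plk1 at chr7:122159185-122159484 (plus strand), Mcm6 at chr1:128359656-128359955 (minus strand) and Tyms at chr5:30073576-30073875 (minus strand). Capitals mark the matches to 3 kinds of motif on either strand. The CHR was searched as TTTGAA and also in the form with a central CG, which is TTCGAA. The CCAAT box was searched by those letters. The E2F site was searched as TTTCCCGC, TTTGGCGC, TTTCGCGC and TTTGCCGC.
Ube2c: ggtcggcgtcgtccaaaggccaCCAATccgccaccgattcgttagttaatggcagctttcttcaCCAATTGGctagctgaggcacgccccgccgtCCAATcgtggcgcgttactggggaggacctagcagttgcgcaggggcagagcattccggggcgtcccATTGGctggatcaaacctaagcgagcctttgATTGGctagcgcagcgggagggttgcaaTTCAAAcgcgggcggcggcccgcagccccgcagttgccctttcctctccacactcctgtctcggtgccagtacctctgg
Cdc20: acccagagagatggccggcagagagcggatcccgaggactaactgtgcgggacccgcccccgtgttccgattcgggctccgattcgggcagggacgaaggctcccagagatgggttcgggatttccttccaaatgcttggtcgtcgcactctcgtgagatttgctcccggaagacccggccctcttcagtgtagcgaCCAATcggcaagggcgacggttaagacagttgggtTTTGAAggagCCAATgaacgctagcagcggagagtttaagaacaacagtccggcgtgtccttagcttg
Prc1: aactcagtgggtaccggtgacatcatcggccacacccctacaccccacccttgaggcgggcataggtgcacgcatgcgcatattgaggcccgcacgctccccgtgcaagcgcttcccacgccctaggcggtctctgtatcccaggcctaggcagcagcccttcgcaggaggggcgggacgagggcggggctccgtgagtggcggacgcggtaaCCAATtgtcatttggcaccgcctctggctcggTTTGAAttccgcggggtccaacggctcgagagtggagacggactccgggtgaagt
Plk1: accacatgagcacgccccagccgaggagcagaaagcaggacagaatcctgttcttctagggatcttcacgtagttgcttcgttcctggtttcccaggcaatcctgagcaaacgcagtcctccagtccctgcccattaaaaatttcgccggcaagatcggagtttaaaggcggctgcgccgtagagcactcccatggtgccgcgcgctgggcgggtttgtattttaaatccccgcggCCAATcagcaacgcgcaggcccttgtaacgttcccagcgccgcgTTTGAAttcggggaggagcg
Mcm6: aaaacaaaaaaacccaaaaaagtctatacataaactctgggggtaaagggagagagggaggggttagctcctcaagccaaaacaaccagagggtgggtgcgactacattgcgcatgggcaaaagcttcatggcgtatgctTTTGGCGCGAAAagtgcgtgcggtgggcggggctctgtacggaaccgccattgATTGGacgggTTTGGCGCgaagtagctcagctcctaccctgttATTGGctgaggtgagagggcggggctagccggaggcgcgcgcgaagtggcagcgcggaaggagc
Tyms: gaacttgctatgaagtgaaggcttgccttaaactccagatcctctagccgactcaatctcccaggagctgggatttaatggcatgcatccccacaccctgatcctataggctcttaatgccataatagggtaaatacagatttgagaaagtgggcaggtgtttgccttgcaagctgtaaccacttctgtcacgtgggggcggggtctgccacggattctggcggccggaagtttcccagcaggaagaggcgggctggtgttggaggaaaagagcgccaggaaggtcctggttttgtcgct
The first 4 windows hold a CHR match and at least 1 CCAAT match, and Mcm6 holds 3 E2F and 2 CCAAT matches but no CHR. In Mcm6 a pair of E2F matches on opposite strands overlap, and in Ube2c a pair of CCAAT matches do. The Tyms window holds none of these letters, which says only that they are not in these 300 bases.

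Across the 33 members with a window, 17 (51.5%) held a CHR match, against 21.7% of 27025 genes with a window. CCAAT was found in 26 members (78.8%), against 41.1% of all genes, and the E2F letters in 5 (15.2%), against 2.6%. CHR and CCAAT stood together in 17 members (51.5%), against 8.61% of all genes. The CHR was held by 9 of 10 mitotic control genes and 6 of 8 chromosome and spindle genes, but by 2 of 10 replication genes and by no G1/S control gene or CDK inhibitor. The E2F letters were held by 4 of 10 replication genes. A match is a description of the letters in the window and not a bound site.

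The first question was whether the members differed between the strains. No member passed the test in the comparison of DBA with 129 (limma, Benjamini-Hochberg over all 22180 genes, threshold 0.05), where 0.216% of all genes were called higher and 0.158% lower in DBA. At an unadjusted p under 0.05, 3 members had higher values in DBA (Aurkb, E2f1 and Mki67) and 1 had a lower value (Tyms), beside 6.44% and 5.08% of all genes. The log2 difference, DBA minus 129, ran from -0.43 to 0.82 over the members, with a median of 0.14 against 0.00 over all genes and 0.03 over the 15163 genes within the members' range of levels. In 31 of 41 members it was above 0, against 11306 of all 22180 genes and 8512 of the 15163 within the range of levels. In 40 of 41 members it was smaller than a 1.5-fold change, as it was in 21344 of all 22180 genes. Both DBA pools lay above both 129 pools in 7 members (Aurkb, E2f1, Mki67, Cdkn1a, Mcm4, Mcm7 and Ccnd3), which held for 23.0% of all genes, and below them in 1, which held for 21.4%, so that in 33 members the strains overlapped. An exact permutation test of 2 pools against 2 cannot give a two-sided p below 0.333, and the p-values here measure only the spread between these pools.

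**Figure D1:**
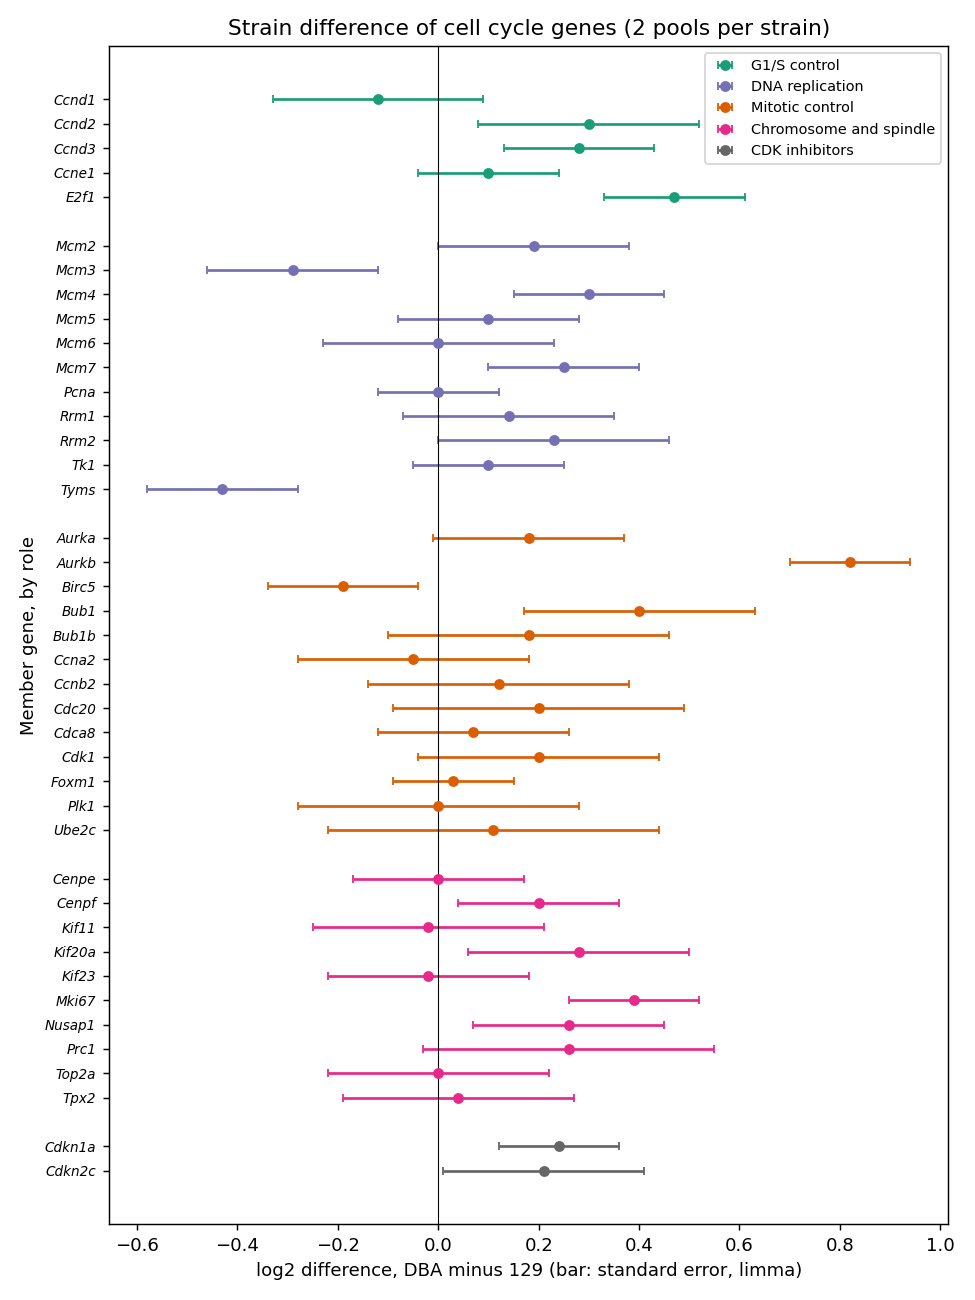
Log2 difference, DBA minus 129, of each of the 41 measured members, with the standard error of the limma fit as a bar, by role. Aurkb stands highest at 0.82 and Tyms lowest at -0.43, and the others gather around the members' median of 0.14.

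The members' values by pool showed another arrangement than the strains. The members' mean log2 value was 8.68 in the DBA female pool and 9.17 in the DBA male pool, against 8.85 in the 129 female pool and 8.73 in the 129 male pool. The DBA male pool was the highest of the 4 for 38 of 41 members (92.7%), where it was the highest for 34.6% of all genes and for 40.3% of genes within the members' range of levels. The DBA female pool was the lowest for 22 members (53.7%), against 24.6% of all genes. All 41 members had a lower value in the DBA female than in the DBA male pool, against 58.0% of all genes, while 14 of 41 (34.1%) were lower in the 129 female than in the 129 male pool, against 39.6% of all genes.

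**Figure D2:**
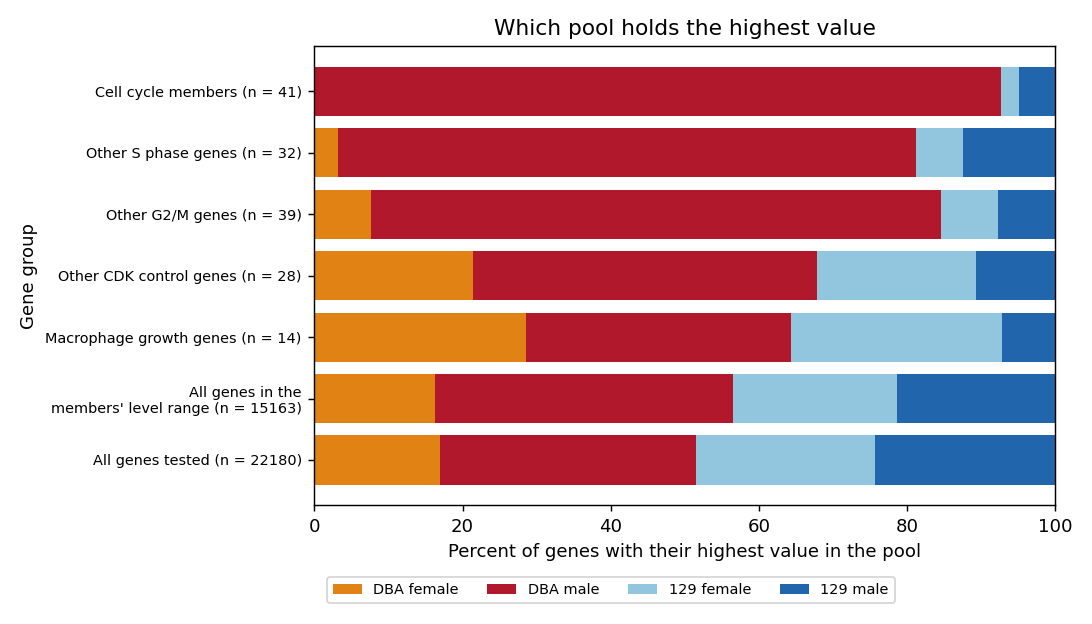
Percent of genes with their highest value in each pool (bar colours), for the 41 members, the other cell cycle and growth lists, all genes within the members' range of levels and all 22180 genes tested. The DBA male pool is the highest for 92.7% of the members and for 34.6% of all genes.

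The strain comparison therefore ran opposite ways in the sexes. Among females the median log2 difference of the members, DBA minus 129, was -0.19 (a ratio of 0.877), and among males it was 0.49 (a ratio of 1.40). Over all genes these medians were -0.03 and 0.04, and over genes within the members' range of levels they were -0.02 and 0.09. In 28 of 41 members (68.3%) the value was lower in DBA among females and higher in DBA among males, which held for 29.0% of all genes, and in no member was it the other way round. With 1 pool of each strain and sex, no degrees of freedom are left for an interaction term, so that the difference between the sexes was not tested, and a sex effect in DBA cannot be told apart from a property of a single pool. In a fit of sex with strain as a term no member passed (0.00451% of all genes were called higher and 0.0135% lower in females), none reached an unadjusted p under 0.05 (1.2% and 0.523% of all genes did), and the members' median log2 difference, female minus male, was -0.22.

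**Figure D3:**
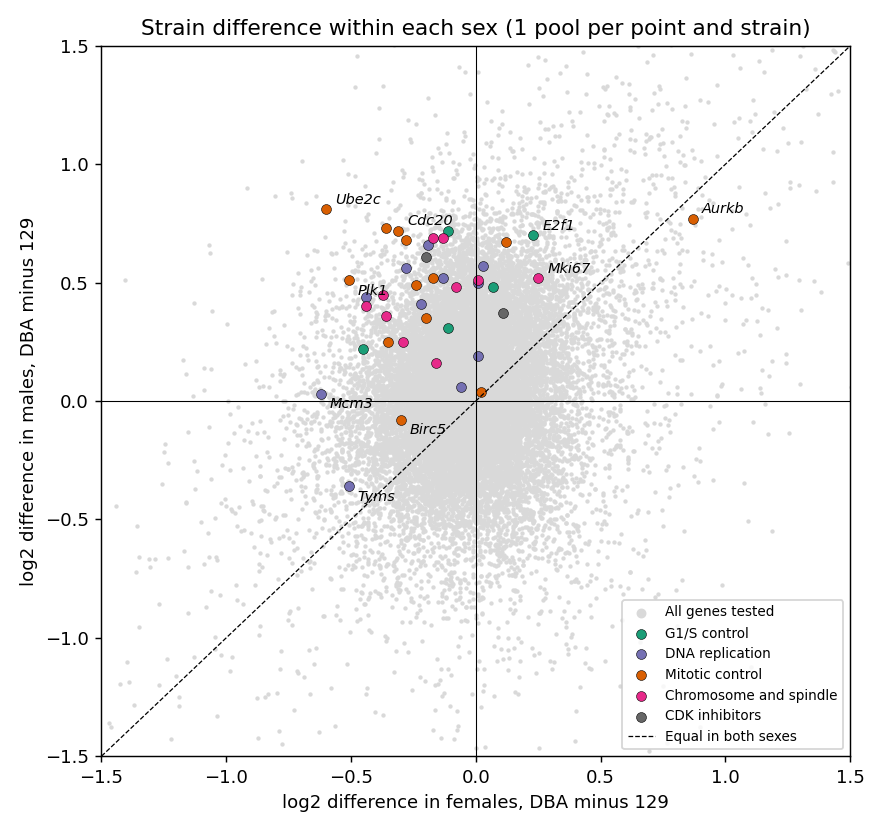
Log2 difference between the strains, DBA minus 129, in females (horizontal axis) and in males (vertical axis) for the members, by role, over all genes in grey, with a dashed line where both sexes are equal. Most members lie to the left of 0 among females and above 0 among males, and Aurkb lies far from them at the upper right.

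G1/S control genes, of which 5 of 6 were measured, had a median log2 difference of 0.28 between the strains, -0.11 among females and 0.48 among males. E2f1, the transcription factor that switches on genes of DNA synthesis, had 10.06 and 10.27 in the female and male DBA pools, against 9.83 and 9.57 in the 129 female and male pools. Its strain groups did not overlap, and the log2 difference was 0.47 ± 0.14 (SE, 2 pools a strain, limma adjusted p = 0.33). Ccnd3, a D-type cyclin that activates the G1 kinases, had 10.48 and 10.50 in DBA females and males, against 10.40 and 10.02 in 129 (log2 difference 0.28 ± 0.15 SE, limma adjusted p = 0.54). Its groups did not overlap either, but the 129 female pool lay close to the DBA pools.

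The other D-type cyclins overlapped between the strains. Ccnd2 had 8.54 and 8.76 in the female and male DBA pools, against 8.65 and 8.04 in the 129 pools (0.30 ± 0.22 SE). Ccnd1 had 8.79 and 9.42 in the DBA pools, against 9.24 and 9.20 in the 129 pools (-0.12 ± 0.21 SE). For Ccnd2 the 129 male pool was the one that stood apart, and for Ccnd1 it was the DBA female pool. Ccne1, the cyclin that activates CDK2 at the entry to S phase, had a log2 difference of 0.10 ± 0.14 (SE).

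All 11 replication genes were measured, with a median log2 difference of 0.10 between the strains, -0.19 among females and 0.44 among males. Tyms, thymidylate synthase, which makes dTMP for DNA, had 8.37 and 8.68 in the female and male DBA pools, against 8.88 and 9.04 in the 129 pools. It was the 1 member with both DBA pools below both 129 pools, at a log2 difference of -0.43 ± 0.15 (SE, limma adjusted p = 0.35) and a ratio of 0.743. Among the 6 subunits of the MCM helicase, which unwinds DNA at the fork, Mcm3 had 9.81 and 10.15 in the DBA pools, against 10.43 and 10.12 in the 129 pools (-0.29 ± 0.17 SE), and was highest in the 129 female pool.

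The other MCM subunits were highest in the DBA male pool. Mcm4 had 9.94 and 10.20 in the female and male DBA pools, against 9.92 and 9.63 in the 129 pools (0.30 ± 0.15 SE), and Mcm7, the other subunit whose strain groups did not overlap, had a log2 difference of 0.25 ± 0.15 (SE). Mcm2, Mcm5 and Mcm6 had differences of 0.19, 0.10 and 0.00. Subunits of 1 helicase thus lay on both sides of 0, with none past the test.

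Pcna, the sliding clamp that holds the polymerase on DNA, was the replication gene closest between the pools, with 12.08 and 12.28 in the DBA pools, against 12.14 and 12.22 in the 129 pools (0.00 ± 0.12 SE). Both subunits of ribonucleotide reductase, which makes deoxynucleotides, had their highest value in the DBA male pool. Rrm1 had a log2 difference of 0.14 ± 0.21 (SE), and Rrm2, which had 2 probe sets, one of 0.23 ± 0.23 (SE). Tk1, the thymidine kinase of the salvage pathway, had 0.10 ± 0.15 (SE).

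**Figure D4:**
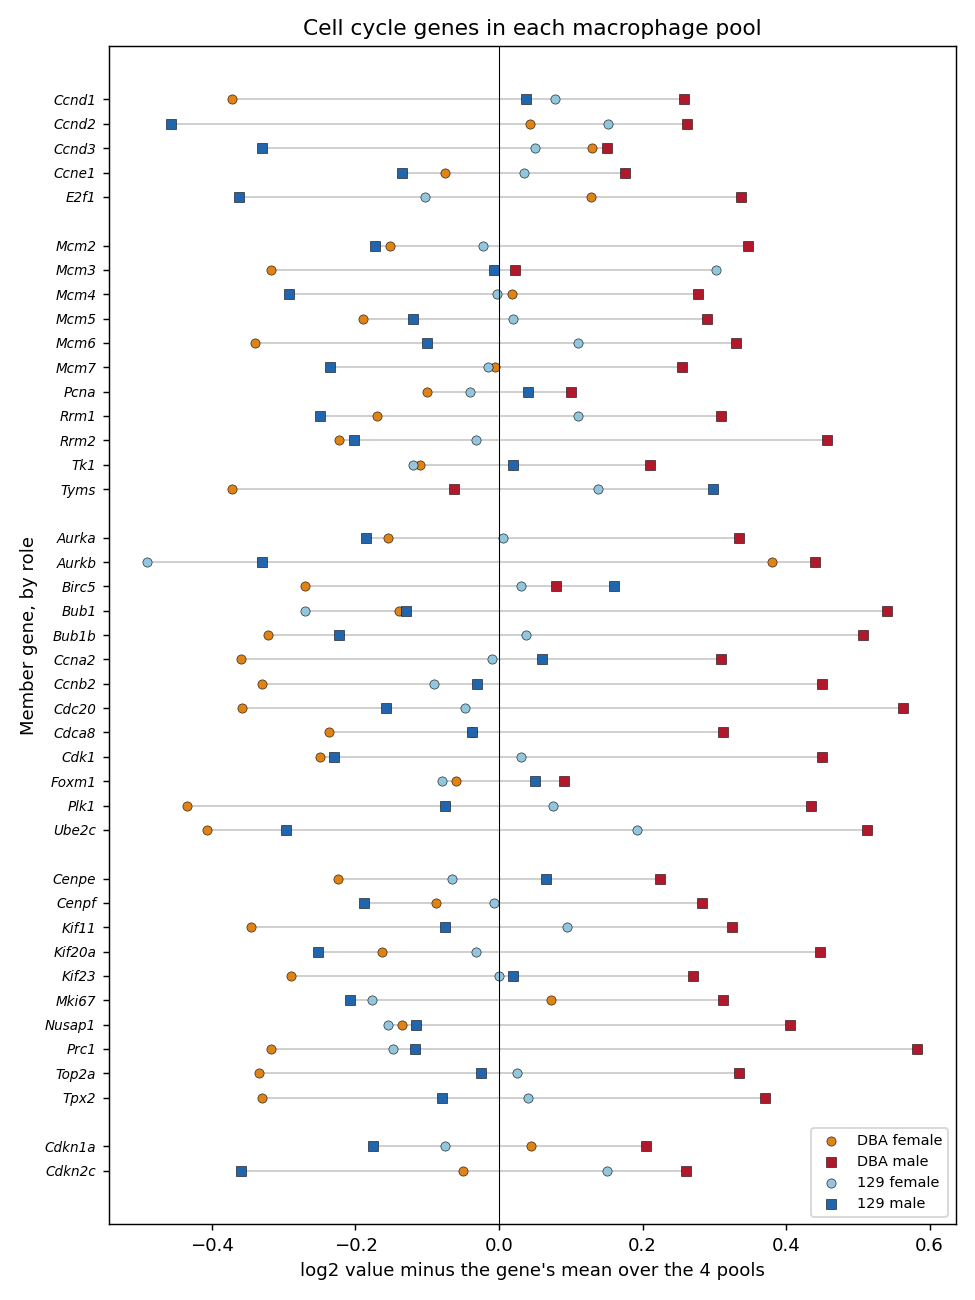
Log2 value of each of the 41 members in the 4 pools, as the deviation from the member's own mean, with the roles set apart by gaps. In Cdca8 the points of both 129 pools coincide. The DBA male pool is the highest for 38 members, while the DBA female pool and the 129 pools change places from gene to gene, and Aurkb is the member with both DBA pools far from both 129 pools.

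Of the mitotic control genes 13 of 14 were measured, with a median log2 difference of 0.12 between the strains, -0.28 among females and 0.52 among males. The DBA female pool lay a median of 0.68 below the DBA male pool, while the 129 female and male pools had a median difference of 0.00. Aurkb, the kinase of the chromosomal passenger complex that corrects the attachment of chromosomes to the spindle, did not follow the others. It had 9.71 and 9.77 in the female and male DBA pools, against 8.84 and 9.0 in the 129 pools, a ratio of 1.83 among females and 1.71 among males. The log2 difference of 0.82 ± 0.12 (SE) was the largest of the members, and it missed the threshold at a limma adjusted p of 0.079, with 0.056 to 0.36 over the alternative settings. Its partners in the complex, Birc5 (survivin) and Cdca8 (borealin), had log2 differences of -0.19 ± 0.15 and 0.07 ± 0.19 (SE), and Birc5 was below the background reference in all 4 pools.

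In Bub1 and Cdk1 the strains overlapped. Bub1, a kinase of the spindle checkpoint, had 7.40 and 8.08 in the female and male DBA pools, against 7.27 and 7.41 in the 129 pools (0.40 ± 0.23 SE). Cdk1, the kinase that starts mitosis, had 8.72 and 9.42 in the DBA pools, against 9.0 and 8.74 in the 129 pools (0.20 ± 0.24 SE). In both genes the DBA male pool stood apart above the other 3.

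Cdc20, which activates the anaphase-promoting complex, had 8.16 and 9.08 in the female and male DBA pools, against 8.47 and 8.36 in the 129 pools (0.20 ± 0.29 SE). Ube2c, the ubiquitin-conjugating enzyme of the same complex, had 7.97 and 8.89 in the DBA pools, against 8.57 and 8.08 in the 129 pools (0.11 ± 0.33 SE). Plk1, the polo kinase, had 8.18 and 9.05 in the DBA pools, against 8.69 and 8.54 in the 129 pools (0.00 ± 0.28 SE). In each of these genes the DBA pools took the lowest and the highest place, so that the pools of 1 strain spanned the whole range of the gene.

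Ccna2, the cyclin of S phase and of entry into mitosis, had 8.99 and 9.66 in the female and male DBA pools, against 9.34 and 9.41 in the 129 pools (-0.05 ± 0.23 SE). Ccnb2, a B-type cyclin that partners CDK1, had a log2 difference of 0.12, Bub1b, which holds back the anaphase-promoting complex, one of 0.18, and Aurka, the kinase of the spindle poles, one of 0.18. Foxm1, the factor that drives mitotic genes, had a difference of 0.03 ± 0.12 (SE).

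All 10 chromosome and spindle genes were measured and all were highest in the DBA male pool, with a median log2 difference of 0.12 between the strains, -0.17 among females and 0.46 among males. Mki67, which coats mitotic chromosomes and encodes the proliferation marker Ki-67, had 9.89 and 10.13 in the female and male DBA pools, against 9.64 and 9.61 in the 129 pools. Its strains did not overlap, so that the value was higher in DBA in both sexes. The log2 difference was 0.39 ± 0.13 (SE, limma adjusted p = 0.35), a ratio of 1.31. Top2a, the topoisomerase that untangles chromosomes, overlapped, with 7.88 and 8.55 in the DBA pools, against 8.24 and 8.19 in the 129 pools (0.00 ± 0.22 SE). These 2 markers of proliferation thus differed in whether the DBA female pool lay above or below the 129 pools.

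Kif20a, a kinesin of cytokinesis, had 8.04 and 8.65 in the female and male DBA pools, against 8.17 and 7.95 in the 129 pools (0.28 ± 0.22 SE). Prc1, which bundles the microtubules of the spindle midzone, had 8.15 and 9.05 in the DBA pools, against 8.32 and 8.35 in the 129 pools (0.26 ± 0.29 SE). Nusap1, a spindle microtubule protein, had 7.15 and 7.69 in the DBA pools, against 7.13 and 7.17 in the 129 pools (0.26 ± 0.19 SE), with the DBA female and 129 female pools below the background reference. In Prc1 and Nusap1 the DBA male pool was high and the other 3 were close to each other.

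Of the remaining genes of this group, Cenpf, a kinetochore protein, had a log2 difference of 0.20, and Cenpe, the kinetochore motor, one of 0.00. The kinesins Kif11 and Kif23, which build the bipolar spindle and the midzone, had -0.02 each, and Tpx2, the activator of Aurora A, had 0.04. These genes were within their standard errors of 0 except Cenpf (SE 0.16).

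Both CDK inhibitors among the members, which hold cells in G1, were highest in the DBA male pool as well. Cdkn1a had 11.33 and 11.49 in the female and male DBA pools, against 11.21 and 11.11 in the 129 pools (0.24 ± 0.12 SE, limma adjusted p = 0.49), without overlap of the strains. Cdkn2c had 8.97 and 9.28 in the DBA pools, against 9.17 and 8.66 in the 129 pools (0.21 ± 0.20 SE). Genes that stop the cycle thus took the same order of DBA female below DBA male as genes that drive it.

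The gap between the DBA pools was not of 1 size over the members. The log2 difference, DBA female minus DBA male, ran from -0.93 to -0.02, with medians of -0.68 in mitotic control, -0.59 in chromosome and spindle, -0.35 in replication, -0.23 in the CDK inhibitors and -0.22 in G1/S control. It was narrow in Ccnd3 (-0.02) and Aurkb (-0.06) and wide in Cdc20 (-0.93) and Ube2c (-0.92). The 17 members with a CHR match in the windows shown above had a median of -0.68, in a range of -0.93 to -0.24, and the 16 members with a window and no CHR had a median of -0.34, in a range of -0.68 to -0.02. In 129 the median female minus male difference was 0.15 in both sets. Split by the E2F letters, the DBA medians were -0.49 in the 5 members with a match and -0.50 in the 28 without. These are descriptions over genes of the same 4 arrays, with no test, and the roles and the CHR go together.

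Other genes of the cell cycle, from lists that hold none of the members, were set beside them. Of 36 other S phase genes 32 were measured and none passed the test (6 had higher and 0 lower values in DBA at an unadjusted p under 0.05, where 6.44% and 5.08% of all genes did), with a median log2 difference of 0.07, -0.14 among females and 0.35 among males. Of 40 other G2/M genes 39 were measured and none passed (2 higher and 1 lower unadjusted), with a median of 0.06, -0.20 among females and 0.26 among males. The DBA male pool was the highest for 25 of the 32 S phase genes (78.1%) and 30 of the 39 G2/M genes (76.9%), against 34.6% of all genes. The pool that was highest for nearly all members was thus the highest for most of these genes too.

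Within those lists the largest differences belonged to genes whose strains did not overlap. Tipin, of the replication fork protection complex, had 7.91 and 8.32 in the female and male DBA pools, against 7.59 and 7.20 in the 129 pools (0.72 ± 0.20 SE, limma adjusted p = 0.29). Usp1, a deubiquitinase of PCNA, had a log2 difference of 0.55 ± 0.18 (SE). Cks2, a subunit of CDK1 complexes, had 9.99 and 10.34 in the DBA pools, against 9.57 and 9.39 in the 129 pools (0.69 ± 0.16 SE, limma adjusted p = 0.22). G2e3, a ubiquitin ligase named for its rise in G2, had 0.60 ± 0.13 (SE, limma adjusted p = 0.20). As with Aurkb and E2f1, the lack of overlap by itself fixes the same direction in females and in males.

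Of 30 other genes of CDK control 28 were measured and none passed (4 higher and 2 lower unadjusted, beside 6.44% and 5.08% of all genes). The DBA male pool was the highest for 13 (46.4%), against 34.6% of all genes. Btg2, an antiproliferative gene, had 10.39 and 9.78 in the female and male DBA pools, against 9.56 and 9.39 in the 129 pools (0.61 ± 0.21 SE), and Ccng2, a cyclin linked to arrest, had a log2 difference of 0.57 ± 0.19 (SE). Both were highest in the DBA female pool, the pool in which most members were lowest.

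Of 15 genes of macrophage growth 14 were measured, none passed (1 higher and 1 lower unadjusted), and the DBA male pool was the highest for 5 (35.7%). These shares were near those of all genes (6.44% higher and 5.08% lower unadjusted, and 34.6% highest in DBA male), so that the list showed nothing beyond them. Gata6, the factor of resident peritoneal macrophages, had 10.16 and 10.35 in the female and male DBA pools, against 10.85 and 10.66 in the 129 pools (-0.50 ± 0.13 SE, limma adjusted p = 0.27). Csf1, the macrophage growth factor, had -0.34 ± 0.18 (SE), and Csf1r, its receptor, had 0.34 ± 0.13 (SE). The ligand thus had its lowest value and the receptor its highest value in the DBA female pool.

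**Figure D5:**
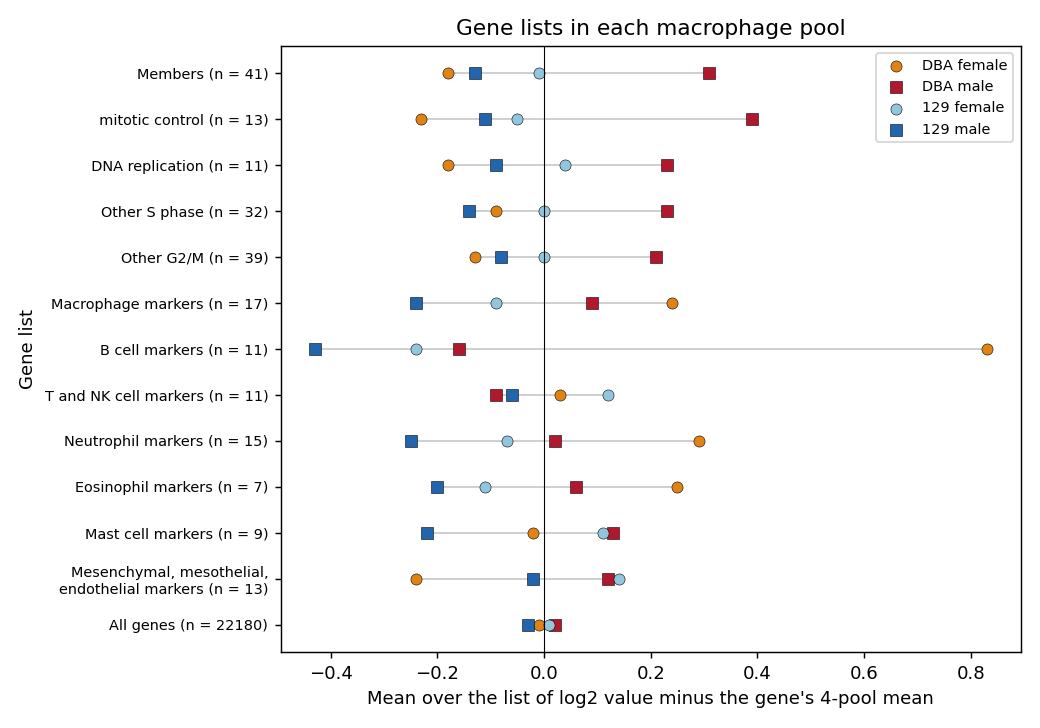
Mean deviation, on the log2 scale, of each gene list from its genes' own means in the 4 pools, for the members, their mitotic control and replication genes, the other cell cycle lists, the cell type markers and all genes. The members stand at -0.18 in DBA female, 0.31 in DBA male, -0.01 in 129 female and -0.13 in 129 male, and the B cell markers at 0.83 in DBA female.

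Markers of other cells differed between the pools as well. In bulk RNA fewer cells of a type and less RNA per cell cannot be told apart. Of 12 B cell markers 11 were measured and none passed (7 higher and 1 lower unadjusted, beside 6.44% and 5.08% of all genes). The DBA female pool was the highest for 9 of the 11, against 16.9% of all genes. The 11 markers' linear signals summed to 9670 in DBA female and 4430 in DBA male, against 5060 in 129 female and 4400 in 129 male. Their top genes were Cd79b, with 11.40 and 10.19 in the DBA pools against 9.68 and 9.22 in the 129 pools, and Cd22, with 9.68 and 8.55 in the DBA pools against 11.03 and 10.88 in the 129 pools. Cd22 ran against most of the list, and Vpreb3 also had a log2 difference below 0 (-0.15 ± 0.14 SE). The sums without Cd22 were 8850 in DBA female and 4060 in DBA male, against 2970 in 129 female and 2510 in 129 male. In 8 of the 11 markers both DBA pools lay above both 129 pools, which held for 23.0% of all genes. The list's median log2 difference was 1.21 among females and 0.49 among males. The pool with the most B cell signal was thus the pool in which most members were lowest. It was also the highest for 10 of 17 macrophage markers (58.8%) and 8 of 15 neutrophil markers (53.3%), against 16.9% of all genes. The share was 42.9% for eosinophil, 27.3% for T and NK cell and 11.1% for mast cell markers. For mesenchymal, mesothelial and endothelial markers it was 15.4%.

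The macrophage markers' linear signals summed to 119000 in DBA female and 113000 in DBA male, against 106000 in 129 female and 104000 in 129 male, with the counts of markers given above. All 13 mesenchymal, mesothelial and endothelial markers were measured and none passed (1 higher and 5 lower unadjusted, beside 6.44% and 5.08% of all genes). The DBA female pool was the lowest for 9 of the 13, against 24.6% of all genes. The 13 markers' signals summed to 8190 in DBA female and 10400 in DBA male, against 12500 in 129 female and 11300 in 129 male. Dcn had 11.75 and 11.95 in the DBA pools, against 12.34 and 12.19 in the 129 pools, and Pdgfra had 9.48 and 10.18 in the DBA pools, against 10.71 and 10.45 in the 129 pools. Most of these markers were thus lowest in the same pool as most members, but their sum was highest in the 129 female pool. The DBA male pool was the highest for 6 of the 13 (46.2%), against 34.6% of all genes. These were Upk3b, Msln, Krt19, Wt1, Cdh5 and Kdr. The 129 female pool was the highest for 4 (30.8%), against 24.2% of all genes.

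Markers of T and NK cells, eosinophils, mast cells and neutrophils had mean deviations between -0.25 and 0.29 in the pools. Of these 11 of 14, 7 of 8, 9 of 9 and 15 of 15 were measured, and 5, 5, 2 and 7 were below the background reference in all 4 pools. The test was passed by 1 mast cell marker, Mcpt4, with 7.49 and 7.90 in the DBA pools, against 5.82 and 5.96 in the 129 pools (limma adjusted p = 0.024), and by 1 neutrophil marker, Mmp9, with 11.61 and 10.95 in the DBA pools, against 8.79 and 8.24 in the 129 pools (limma adjusted p = 0.028). Both were higher in DBA in both sexes. Mcpt4 was highest in the DBA male pool, as most members were, and Mmp9 in the DBA female pool. Some other markers ran the other way, at -0.72 in Hdc and -0.49 in Mrgprb1 (mast cell) and -0.42 in Padi4 (neutrophil). The medians of these lists were -0.04 and 0.00. At an unadjusted p under 0.05, 1 mast cell marker was higher and 2 lower in DBA. For neutrophil markers these were 5 and 0, beside 6.44% and 5.08% of all genes.

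The markers with the highest means took several orders of the pools. The T cell adaptor Lat (9.76, 9.86, 10.41 and 10.06 in DBA female, DBA male, 129 female and 129 male) and the eosinophil receptor Siglecf (7.46, 7.41, 7.92 and 7.84) were lower in both DBA pools. The lipoxygenase Alox15 (13.18, 12.36, 11.17 and 10.75), the receptor Csf3r (12.49, 12.03, 11.85 and 11.78) and the collagenase Mmp8 (10.65, 10.04, 9.85 and 9.16) were highest in the DBA female pool and lowest in the 129 male pool. The T cell gene Cd5 (8.02, 7.86, 8.05 and 7.92) and the mast cell proteases Cpa3 (10.45, 10.37, 10.44 and 10.05) and Tpsb2 (8.21, 8.55, 8.84 and 7.99) overlapped between the strains. The part of other cells in the members' order of pools was not tested.

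The gap was smaller after quantile normalization. The DBA male pool was then the highest for 33 of 41 members (80.5%), against 28.1% of all genes, and the median log2 difference of the members was -0.15 among females and 0.28 among males. With the arrays set to a common median the values were 38 of 41, -0.14 and 0.50. The members' median between the strains was -0.11 without the DBA male pool and 0.38 without the DBA female pool, so that its sign rested on the DBA male pool. The same held for 3 of the role groups, whose medians without the DBA male pool were -0.23 in mitotic control, -0.10 in replication and -0.21 in chromosome and spindle genes. Without the DBA female pool these were 0.52, 0.34 and 0.39. The G1/S control genes and the CDK inhibitors kept a median above 0 with any 1 pool left out, from 0.01 to 0.47 and from 0.07 to 0.38. With another pool left out, the DBA male pool remained the highest of the 3 left for 38 members without DBA female, 39 without 129 female and 39 without 129 male, where this held for 43.0%, 43.3% and 39.5% of all genes.

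Members are spread over the genome, with 8 of 41 on chromosome 2 (19.5%, against 8.4% of genes): Bub1b, Nusap1, Bub1, Pcna, E2f1, Tpx2, Ube2c and Aurka. By gene order, Ube2c lies between Phf20 and Slc2a10, the genes taken here as the ends of Ath45, and no member lies between Hmcn1 and Atp1b1 at Ath44. Ube2c did not differ between the strains beyond its standard error (0.11 ± 0.33).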

How the data were processed

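Peritoneal macrophage RNA (250 ng a pool) was hybridised to Affymetrix whole-transcript mouse gene arrays. The authors deposited log2 signals from Affymetrix Expression Console, which were used unaltered. How the software corrected background, summarised probes and normalized arrays, and its version, is not given in the sources used here. Of 41345 probe sets 23521 had 1 gene symbol, 1820 had several and 16004 had none. Symbols were updated through RefSeq (23328 probe sets matched), and the probe set with the highest mean stood for each of the 1082 genes with several. Strain was tested with limma 3.58.1 (R 4.3.3; lmFit and eBayes, 2 residual degrees of freedom, prior 3.73) and sex in a fit with strain as a term (1 residual, prior 4.34), with Benjamini-Hochberg adjustment over 22180 genes and a threshold of 0.05. The fit was tested on simulated data. Probe set levels served to choose which genes to name and were summed within marker lists, and no gene's level was tested against another's. The number of arrays limits the precision. The labels do not say how the mice were assigned to pools or arrays to batches.

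The rule for named genes was every member with its difference. Pool values were given for the 3 members of each role group with the largest difference, its highest member, and Mki67, Top2a, Pcna, Cdk1, Ccnd1, Ccnd2, Ccnd3, Cdkn1a and Cdkn2c. Of each other cycle or growth list 2 genes were named by difference, and of each marker list the 2 with the highest mean. Marker genes past the test, Aif1, Marco, Mertk, Csf1r, Hdc, Mrgprb1 and Padi4 were named after their values were seen. So were Cdkn1b, Cdkn1c, Cdkn2a, Cdkn2b, Cdkn2d, Vpreb3, Upk3b, Msln, Krt19, Wt1, Cdh5 and Kdr. Pool values of Ube2c, Plk1 and Prc1 and all printed promoter windows were chosen after their values were seen. The members and lists were chosen with earlier results of these data known.

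Each result was refitted after quantile normalization or centring on a common median, with dim genes removed, with probe sets averaged per gene or all tested together, with a trended robust prior, with sex as a block, and with each pool left out. Counts of the DBA male pool as highest with other pools left out and B cell sums without Cd22 were added after seeing the data.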

Additional observations from a re-analysis of the deposited data

Results flagged for a closer look

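In 16 of the 41 members the strain difference, DBA minus 129, exceeded 0.2 on the log2 scale in both sexes and ran opposite ways, lower in DBA among females and higher in DBA among males. Over all genes 6.89% met the same rule in either direction. With 1 pool of each strain and sex, none of these differences between the sexes was tested. The members' median strain difference among females minus that among males was -0.68.

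The gap was widest in 4 mitotic control genes, at -1.41 in Ube2c (-0.60 among females and 0.81 among males), -1.09 in Bub1b (-0.36 and 0.73), -1.03 in Cdc20 (-0.31 and 0.72) and -1.02 in Plk1 (-0.51 and 0.51). Among the cyclins and their kinase it was -0.96 in Cdk1, -0.73 in Ccnb2, -0.67 in Ccnd1 and -0.60 in Ccna2. Among replication genes it was -0.88 in Mcm6, -0.84 in Rrm1 and -0.63 in Mcm5. Among chromosome and spindle genes it was -0.84 in Kif11, -0.82 in Tpx2, -0.72 in Top2a and -0.54 in Kif23. The CDK inhibitor Cdkn2c had -0.81 (-0.20 and 0.61).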

How the results depend on the processing

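No member passed the threshold under any alternative run, with 0.056 the lowest adjusted p, and the counts of the other cell cycle lists stayed at 0. Over all genes, 48 were higher and 35 lower in DBA. These were 31 and 16 with sex as a block, 76 and 53 with the trended and robust prior, and 0 and 0 with all probe sets tested together, and ran from 3 to 127 and from 3 to 59 with 1 pool left out (127 and 59 without the DBA male pool, 3 and 3 without the 129 male pool). Replicate numbers stand for the female and the male pool in both strains, so that the block of sex is also the replicate block. It changed no member's call. Quantile normalization turned the log2 difference to -0.04 in Top2a, -0.03 in Mcm5, -0.06 in Pcna, -0.03 in Foxm1 and -0.05 in Tpx2, and the common median turned it to 0.03 in Plk1, 0.01 in Kif11, 0.01 in Kif23, 0.03 in Cenpe and 0.03 in Mcm6. The cause was not tested.

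The members' median ran from -0.11 to 0.38 with 1 pool left out, and 28 of 41 members changed sign, 20 of them without the DBA male pool. The ranges were Top2a -0.33 to 0.34, Cdk1 -0.15 to 0.55, Ccnb2 -0.27 to 0.52, Ccna2 -0.39 to 0.28, Ccne1 -0.03 to 0.22, Ccnd1 -0.43 to 0.20, Bub1b -0.23 to 0.60, Aurka -0.07 to 0.42, Plk1 -0.44 to 0.43, Cdc20 -0.26 to 0.67, Cdca8 -0.20 to 0.35, Kif11 -0.36 to 0.32, Kif20a -0.02 to 0.59, Kif23 -0.30 to 0.26, Cenpe -0.23 to 0.22, Mcm2 -0.05 to 0.44, Mcm5 -0.15 to 0.34, Mcm6 -0.34 to 0.33, Pcna -0.10 to 0.10, Rrm1 -0.10 to 0.38, Rrm2 -0.11 to 0.57, Tk1 -0.06 to 0.26, Foxm1 -0.05 to 0.11, Ube2c -0.36 to 0.57, Prc1 -0.19 to 0.71, Nusap1 -0.01 to 0.53, Tpx2 -0.31 to 0.39, Cdkn2c -0.05 to 0.46. The 13 members that kept their sign included Aurkb (0.74 to 0.90), E2f1 (0.33 to 0.60), Mki67 (0.27 to 0.50) and Tyms (-0.59 to -0.28). The number of arrays, 2 a strain, limits what could be called.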
